A study of Mus musculus with 4 samples.

Results

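The transcripts of 10 genes for matricellular and adhesive matrix proteins were measured in 4 mouse neuroblastomas. The genes are Tnc, Tnxb, Postn, Thbs1, Thbs2, Thbs3, Sparc, Fn1, Vcan and Tgfbi. They were chosen by name, with earlier results of these data known. Each matched 1 Ensembl gene of the 43432 in the deposited count table, and all 10 passed the filter on low counts. The tumours were subcutaneous 9464D-GD2 tumours in female C57BL/6 mice. 9464D is a single neuroblastoma line, derived from a tumour of a mouse that carried human MYCN, and the GD2 line carries the ganglioside GD2 at its surface. In the dinutuximab group 2 mice received 25 µg of dinutuximab, an antibody against GD2, at each dose. In the sEV group 2 mice received 25 µg of dinutuximab together with 20 µg of small extracellular vesicles (sEVs) derived from the same line. Both groups were dosed 2 times per week for 5 treatments, so that every tumour had been exposed to the antibody, and mouse age is not given in the sources used here. Each group has a tumour 3 and a tumour 4 by its labels. The comparison addresses what sEVs change in tumours that are under antibody therapy.

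Matricellular proteins are secreted into the extracellular matrix, where they bind collagens, growth factors and cell surface integrins rather than bearing load. Tenascins and periostin are typical of remodelling stroma and wounds, thrombospondins 1 and 2 restrain vessel growth, and thrombospondin 1 activates latent transforming growth factor beta (TGF-beta). Fibronectin and versican, listed here with them, form the fibrillar and hyaluronan-rich matrix on which cells migrate. In tumours these genes are expressed by fibroblasts, pericytes, macrophages and, to a varying degree, by the tumour cells.

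None of the 10 genes passed the test of a difference between the groups once p-values were adjusted over all genes, and their fold changes had mixed signs. Tenascin C and periostin transcripts were less abundant in both sEV tumours than in both dinutuximab tumours, by 3.62-fold and 2.04-fold. Tenascin XB, versican and thrombospondin 2 transcripts were more abundant in both sEV tumours, by 2.22-fold, 1.42-fold and 1.20-fold. The other 5 genes overlapped between the groups. Groups that did not overlap, 5 of the 10 here, made up 34.6% of all genes tested (18.1% higher and 16.5% lower), and the threshold was passed by 0 of the 10 and by 0.00% of all genes in each direction. The median log2 fold change of the 10 genes was 0.03, against 0.0015 over all genes tested, with 5 positive and 5 negative values, and ranged from -0.18 to 0.25 with a tumour left out.

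The promoters of the 2 genes with the most negative fold changes are shown here with those of Tnxb and Vcan, which had positive fold changes. Each run is the 250 bases before the RefSeq transcript start on GRCm38.p6, written 5′ to 3′ on the gene's strand, and matches on either strand to any of the 6 motifs searched are in capitals. RefSeq entries were found for 8 of the 10 genes. Tnc and Postn have 2 RefSeq starts each. The Tnc start shown lies 79 bases inside the GENCODE gene start, which the other Tnc start matches, and the Postn start shown lies 2 bases from the GENCODE gene start and the other 1842 bases from it. The starts shown were picked with the motif matches known. Tnc lies on the minus strand at chr4:64046937-64047186, Postn on the plus strand at chr3:54360857-54361106, Tnxb on the plus strand at chr17:34670285-34670534 and Vcan on the minus strand at chr13:89742513-89742762.
Tnc: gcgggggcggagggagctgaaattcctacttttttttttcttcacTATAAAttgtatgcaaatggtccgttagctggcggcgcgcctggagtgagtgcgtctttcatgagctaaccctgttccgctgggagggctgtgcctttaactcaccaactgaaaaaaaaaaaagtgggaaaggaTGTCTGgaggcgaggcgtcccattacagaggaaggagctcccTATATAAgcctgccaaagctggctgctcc
Postn: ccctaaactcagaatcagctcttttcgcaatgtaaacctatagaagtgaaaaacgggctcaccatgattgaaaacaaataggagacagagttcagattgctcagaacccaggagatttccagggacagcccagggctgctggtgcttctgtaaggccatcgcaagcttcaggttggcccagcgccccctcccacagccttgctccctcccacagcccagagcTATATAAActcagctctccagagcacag
Tnxb: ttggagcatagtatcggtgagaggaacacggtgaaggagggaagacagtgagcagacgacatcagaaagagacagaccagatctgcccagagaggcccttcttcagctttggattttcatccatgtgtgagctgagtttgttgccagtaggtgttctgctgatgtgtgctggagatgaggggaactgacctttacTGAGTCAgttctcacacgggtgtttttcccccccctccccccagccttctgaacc
Vcan: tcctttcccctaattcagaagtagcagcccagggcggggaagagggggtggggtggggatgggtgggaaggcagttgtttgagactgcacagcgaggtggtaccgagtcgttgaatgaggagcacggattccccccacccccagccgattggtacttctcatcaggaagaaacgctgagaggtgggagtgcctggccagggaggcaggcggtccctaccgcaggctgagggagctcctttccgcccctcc
The Tnc and Postn windows shown held the letters TATATAA close to the start, beginning 29 bases before it in Tnc and 28 bases before it in Postn, and the windows of their other starts did not. This run of letters was present in 3.02% of 32536 distinct windows of the same length. The shorter TATAAA, held by 12.3% of windows, began 26 bases before the start in Postn, where it overlaps TATATAA, and 205 bases before the start in Tnc. The SMAD letters CAGACA, held by 17% of windows, began 71 bases before the start in Tnc. The AP-1 motif TGANTCA, held by 6.73% of windows, began 55 bases before the start in Tnxb. The TEAD letters GGAATG, in 12.6% of windows, and the CArG box, the binding sequence of serum response factor, in 1.48%, were in none of the 4 windows shown, and the Vcan window held none of the 6 motifs. Among the windows not shown, Thbs2, which also had a positive fold change, held TATAAA beginning 126 bases before the start and the SMAD letters at 67 and 44 bases before it. Sparc, likewise positive, held the SMAD letters at 36 bases before the start. This Sparc start lies 3103 bases inside the GENCODE gene start. The motifs were picked with the fold changes known, and a match is a description of these letters alone.

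The genes spanned a 519-fold range in level. Counts scaled to library size (CPM) were divided by the merged exon length in kb, since levels of different genes can be compared only per length. On this scale fibronectin (Fn1) and Sparc, a collagen-binding glycoprotein, were the most abundant, at 158 ± 27.6 and 156 ± 31.7 (SD over the 4 tumours). Tgfbi, a TGF-beta-induced adhesion protein related to periostin, followed at 88.6 ± 12.3. Thbs2 (14.6 ± 1.58) and Vcan (10.5 ± 2.22) came next, then Thbs1 (6.34 ± 1.58) and Thbs3 (3.004 ± 0.815). Postn (0.905 ± 0.403), Tnc (0.877 ± 0.631) and Tnxb (0.304 ± 0.186) were the least abundant of the 10. The ranges over the 4 tumours overlapped between Fn1 and Sparc, between Thbs2 and Vcan, between Postn and Tnc, and between Tnc and Tnxb. The other neighbours in this order did not overlap. With the length of the longest transcript in place of merged exons Sparc (257) stood above Fn1 (222). Among the 13823 genes tested, Fn1 and Sparc lay at the 97.8th and 97.7th percentile of level per kb and Postn and Tnc at the 18.8th and 18.4th.

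**Figure D1:**
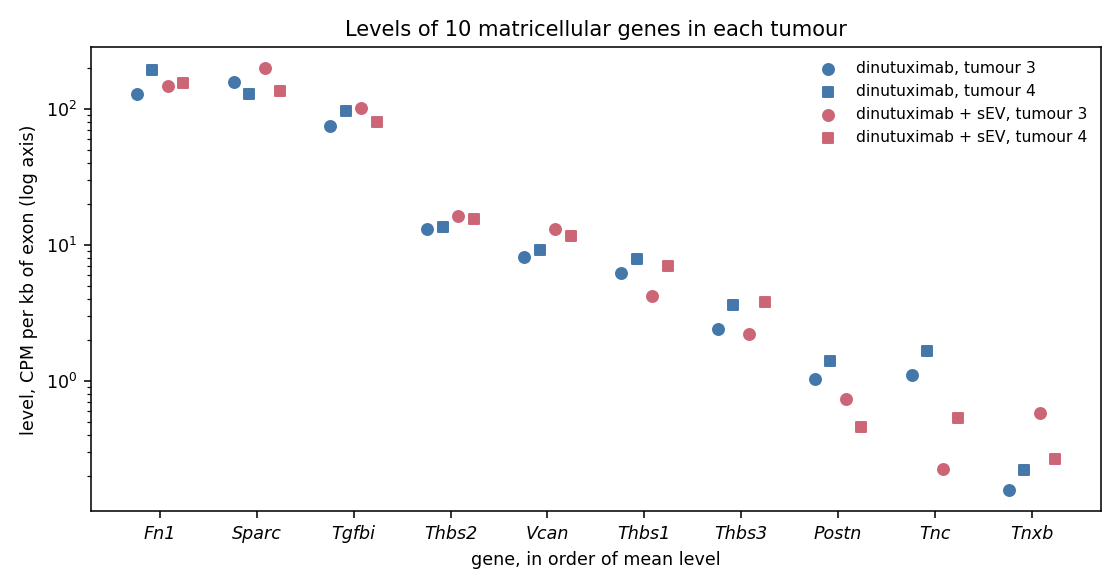
Level of each gene in each tumour, as CPM per kb of merged exon on a log axis, with genes in order of mean level. Blue points are dinutuximab tumours and red points are sEV tumours, with circles for tumour 3 and squares for tumour 4. Fn1 and Sparc averaged 158 and 156 and Tnxb averaged 0.304.

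Tnc encodes tenascin C, a hexameric glycoprotein of remodelling and tumour stroma. It had 219 and 314 counts in the dinutuximab tumours 3 and 4 and 46 and 119 counts in the sEV tumours 3 and 4. Scaled to library size these were 8.53, 12.85, 1.76 and 4.12. Both sEV tumours lay below both dinutuximab tumours, and the sEV tumours differed from each other by 2.35-fold. The dinutuximab pair averaged 10.7 ± 3.05 CPM and the sEV pair 2.94 ± 1.67 CPM (SD, n = 2). The log2 fold change was -1.85 ± 0.39 (SE), with a 95% interval from -2.75 to -0.96. Like the other intervals given here, it is per gene and not adjusted over all genes. The quasi-likelihood test of edgeR gave a Benjamini-Hochberg adjusted p of 0.463 over all genes, and Tnc stood 34th of the 13823 genes by p.

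Without sEV tumour 4 the log2 fold change of Tnc was -2.60 and without sEV tumour 3 it was -1.38. Both fits, DESeq2, a fit without the low-count filter and a fit with the tumour number as a block put Tnc past the threshold, while the other 9 alternatives did not. The settings in which Tnc passed also called other genes. In the fits without an sEV tumour and in that without the filter, a gene had no spread of its own in the test. In the block fit the spread shared over genes weighed more than in the main fit. Lower calls were 0.254% of genes tested with DESeq2, 0.704% without the filter, 0.333% with the block, 0.592% without sEV tumour 3 and 1.10% without sEV tumour 4. Higher calls in the same order were 0.115%, 0.486%, 0.152%, 0.338% and 1.13%.

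Postn encodes periostin, which links collagen fibrils to tenascin C and binds integrins. Its levels were 9.04 and 12.1 CPM in the dinutuximab tumours and 6.41 and 3.95 CPM in the sEV tumours, from 232, 296, 168 and 114 counts. The groups did not overlap, and here sEV tumour 4 was the lowest, where for Tnc it was sEV tumour 3. The means were 10.6 ± 2.18 and 5.18 ± 1.74 CPM (SD, n = 2). The log2 fold change was -1.03 ± 0.29 (SE), with a 95% interval from -1.69 to -0.37. The edgeR adjusted p was 0.646. With a tumour left out the log2 fold change was closest to 0 without sEV tumour 4 (-0.72) and without dinutuximab tumour 4 (-0.80). It was -1.23 without dinutuximab tumour 3 and -1.43 without sEV tumour 3.

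Tnxb encodes tenascin X, an elastic-fibre and collagen-associated tenascin of loose connective tissue. It was the least abundant of the 10 genes, with 49 and 66 counts in the dinutuximab tumours and 184 and 93 in the sEV tumours, or 1.91, 2.70, 7.02 and 3.22 CPM. The groups did not overlap, and sEV tumour 3 stood 2.18-fold above sEV tumour 4. The log2 fold change was 1.15 ± 0.41 (SE, 95% interval from 0.22 to 2.08, edgeR adjusted p = 0.791). Without sEV tumour 3 it was 0.48 ± 0.43, and without sEV tumour 4 it was 1.61 ± 0.38.

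**Figure D2:**
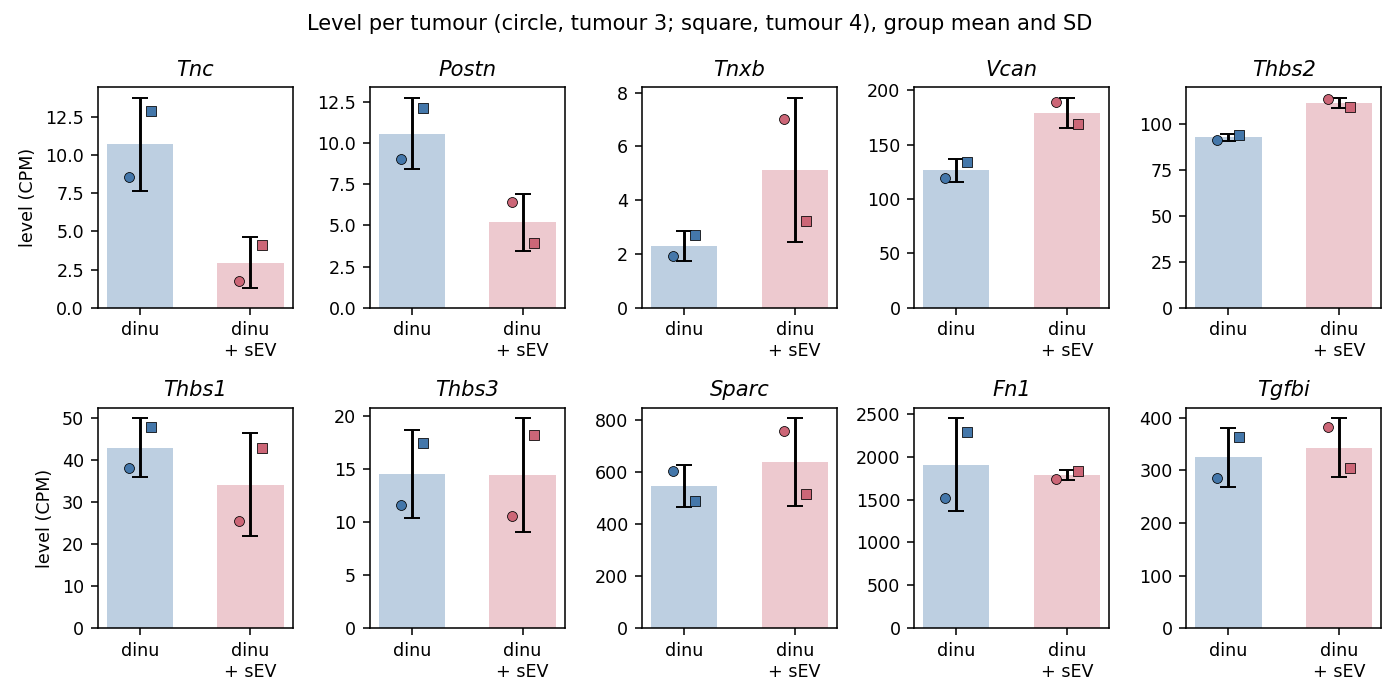
Level of each gene in CPM by group, with bars for the mean of 2 tumours, error bars for the SD, circles for tumour 3 and squares for tumour 4. The groups do not overlap for Tnc, Postn, Tnxb, Vcan and Thbs2, and overlap for the other 5 genes.

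Among the thrombospondins, Thbs2 had the least spread of the 10 genes, within groups as well as over all 4 tumours. Thrombospondin 2 is a trimeric inhibitor of vessel growth made mainly by fibroblasts. It was at 91.3 and 94.2 CPM in the dinutuximab tumours and at 113.6 and 109.6 CPM in the sEV tumours. Both sEV tumours lay above both dinutuximab tumours, and within a group the tumours differed by no more than 1.04-fold. The log2 fold change was 0.27 ± 0.12 (SE), with a 95% interval from -0.02 to 0.55 and an edgeR adjusted p of 0.886.

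Thbs1 and Thbs3 were lower in tumour 3 than in tumour 4 of both groups. Thrombospondin 1 is a trimeric activator of latent TGF-beta and a ligand of CD36 and CD47. Thbs1 was at 37.9 and 47.8 CPM in the dinutuximab tumours and at 25.4 and 42.8 CPM in the sEV tumours. Tumour 3 was the lower of its group in both, by 1.26-fold and 1.68-fold, and the groups overlapped. The log2 fold change of -0.33 ± 0.24 (SE, edgeR adjusted p = 0.909) was -0.01 without sEV tumour 3 and -0.75 without sEV tumour 4. Thbs3, a pentameric thrombospondin that lacks the anti-angiogenic repeats, was at 11.6 and 17.5 CPM in the dinutuximab tumours and at 10.6 and 18.2 CPM in the sEV tumours. Tumour 3 was again the lower in both groups, by 1.51-fold and 1.72-fold. Its log2 fold change was -0.01 ± 0.29 (SE, 95% interval from -0.67 to 0.65), and 0.03 with total-count scaling.

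Vcan encodes versican, a large proteoglycan that binds hyaluronan. Its levels were 118.8 and 133.6 CPM in the dinutuximab tumours and 188.8 and 168.9 CPM in the sEV tumours. The groups did not overlap, with at least 3050 counts behind each value and tumours of a group within 1.12-fold of each other. The means were 126 ± 10.4 and 179 ± 14.1 CPM (SD, n = 2), and the log2 fold change of 0.50 ± 0.14 (SE) had a 95% interval from 0.19 to 0.81. The edgeR adjusted p was 0.614, and the value stayed between 0.41 and 0.59 over the 14 alternatives.

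The 3 most abundant genes showed no separation of the groups. Fn1, the gene of fibronectin, was at 1522 and 2288 CPM in the dinutuximab tumours and at 1741 and 1829 CPM in the sEV tumours. The sEV values fell inside the range of the dinutuximab pair, and the log2 fold change was -0.09 ± 0.18 (SE, 95% interval from -0.51 to 0.33). Sparc was at 602.5 and 489.2 CPM in the dinutuximab tumours and at 756.1 and 517.2 CPM in the sEV tumours. Here tumour 3 was the higher of its group in both, and the log2 fold change was 0.22 ± 0.19 (SE, 95% interval from -0.22 to 0.66). Tgfbi was at 285.5 and 364.0 CPM in the dinutuximab tumours and at 382.5 and 304.1 CPM in the sEV tumours. Its log2 fold change was 0.08 ± 0.17 (SE, 95% interval from -0.30 to 0.46). The direction turned for Sparc without sEV tumour 3, for Fn1 without dinutuximab tumour 4, and for Tgfbi without dinutuximab tumour 3 or sEV tumour 3.

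**Figure D3:**
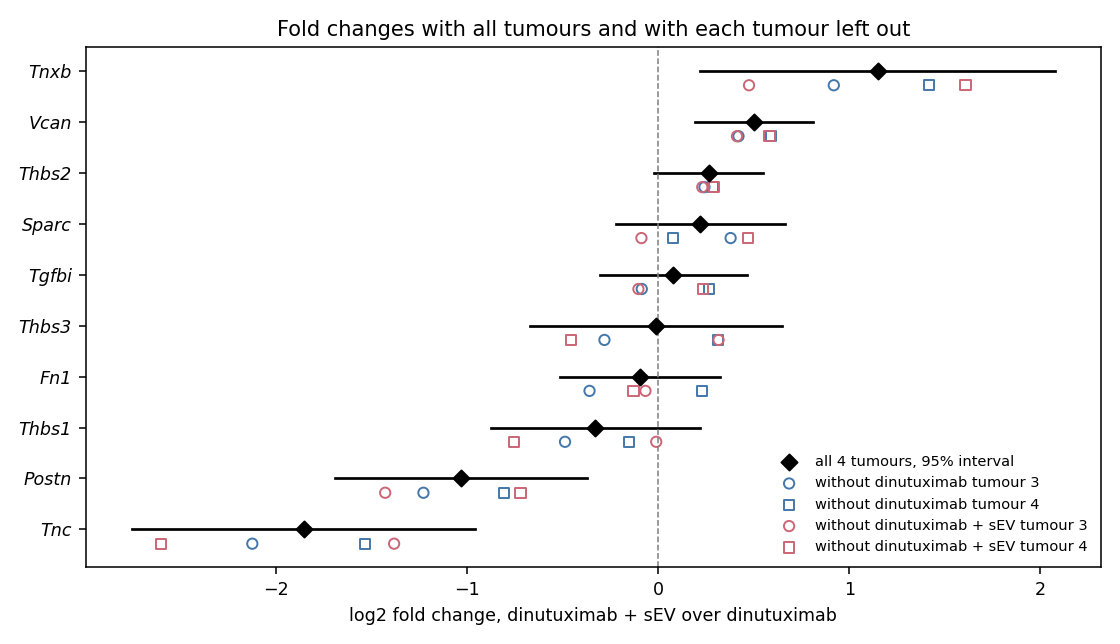
Log2 fold change of each gene, sEV over dinutuximab, on a linear axis, where black diamonds are the fit to all 4 tumours and black lines its 95% interval. Open symbols are fits with 1 tumour left out, blue for a dinutuximab and red for an sEV tumour. Tnc lies at -1.85 and stays below 0 in all 4 of those fits, while Sparc, Fn1, Tgfbi and Thbs3 fall on both sides of 0.

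Over all genes the edgeR test called 0 higher and 0 lower. Of the 13823 genes tested, 6953 had a positive and 6870 a negative log2 fold change. At an unadjusted p under 0.05 the edgeR test gave 341 genes higher (2.47%) and 429 lower (3.10%), 5.57% of those tested in all. Among the 10 it gave 4, namely Tnc, Postn, Vcan and Tnxb. Since the 10 were chosen with earlier results known, these shares do not test for an excess among them. limma-voom also called 0 (316 higher and 427 lower unadjusted), and DESeq2 called 14 higher and 31 lower, with Tnc as the only one of the 10. Libraries held between 24452699 and 28187573 counts. Chi-square over genes, per degree of freedom, came to 25.6 and 28.5 within the groups and to 24.3 to 38.3 across them. The labels' neuroblastoma identity was checked on 9 markers. Dbh had 0 counts in all 4 libraries, which with 3 counts as the limit leaves a level of at most 0.123 CPM in a library, Th had at most 3 counts, and Hand2 and Mycn were at no less than 144.5 and 133.3 CPM.

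Of the wider matricellular family 23 further genes were listed, and 13 were measured well enough to test, with a median log2 fold change of -0.08 that ranged from -0.28 (without sEV tumour 4) to 0.0019 (without dinutuximab tumour 4) with a tumour left out. At an unadjusted p under 0.05, 2 of them were higher and 3 lower, and none passed after adjustment (edgeR adjusted p of at least 0.463). Over all genes tested 2.47% were higher and 3.10% lower at that p, and these shares apply to the lists below as well. Ccn2, the connective tissue growth factor and a target of TGF-beta and YAP signalling, had 275, 146, 74 and 61 counts in dinutuximab tumours 3 and 4 and sEV tumours 3 and 4. Its log2 fold change of -1.76 ± 0.34 (SE) was close to that of Tnc. Efemp1, a fibulin, and Fstl1, a secreted glycoprotein of the Sparc family, had 0.48 ± 0.12 and 0.45 ± 0.13. The remaining 10 genes were below the filter, and Spock1 and Spock3 had no counts.

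Receptors of these proteins had positive fold changes in 12 of 16 tested genes and a median log2 fold change of 0.17, which was 0.03 without sEV tumour 3 and 0.24 without sEV tumour 4. Itgb3, the beta-3 chain of the vitronectin receptor that also binds periostin and fibronectin, had 0.59 ± 0.13 (SE), from 95.9 and 92.3 CPM to 151.9 and 132.3 CPM. Cd36, a receptor of thrombospondins 1 and 2, had 0.45 ± 0.15, and Sdc1, a heparan sulphate proteoglycan, 0.29 ± 0.17. None passed (edgeR adjusted p of at least 0.463), and 2 were higher and 0 lower at an unadjusted p under 0.05.

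Enzymes and partners that assemble or cleave this matrix had a median log2 fold change of -0.52, with 11 of 17 tested genes negative. That median was 0.0066 without dinutuximab tumour 4, -0.28 and -0.32 without sEV tumours 3 and 4, and -0.53 without dinutuximab tumour 3. Lox, the lysyl oxidase that cross-links collagen, was at 43 and 31 counts in the dinutuximab tumours and at 7 and 6 in the sEV tumours (-2.61 ± 0.47, SE, edgeR adjusted p = 0.389). Loxl2, a related oxidase, had -1.36 ± 0.43, and Tgm2, the transglutaminase that cross-links fibronectin, 0.37 ± 0.14. The list held 1 gene higher and 2 lower at an unadjusted p under 0.05, and none passed after adjustment.

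TGF-beta ligands, receptors and response genes had a median of 0.05 over 12 tested genes, with 7 positive, and the median was negative without dinutuximab tumour 3 (-0.09) and without sEV tumour 3 (-0.03). Skil, a feedback inhibitor, had -0.37 ± 0.17 (SE). Ltbp1, which anchors latent TGF-beta to fibronectin and fibrillin, had 0.35 ± 0.14. None passed after adjustment, and 1 was higher and 1 lower at an unadjusted p under 0.05.

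**Figure D4:**
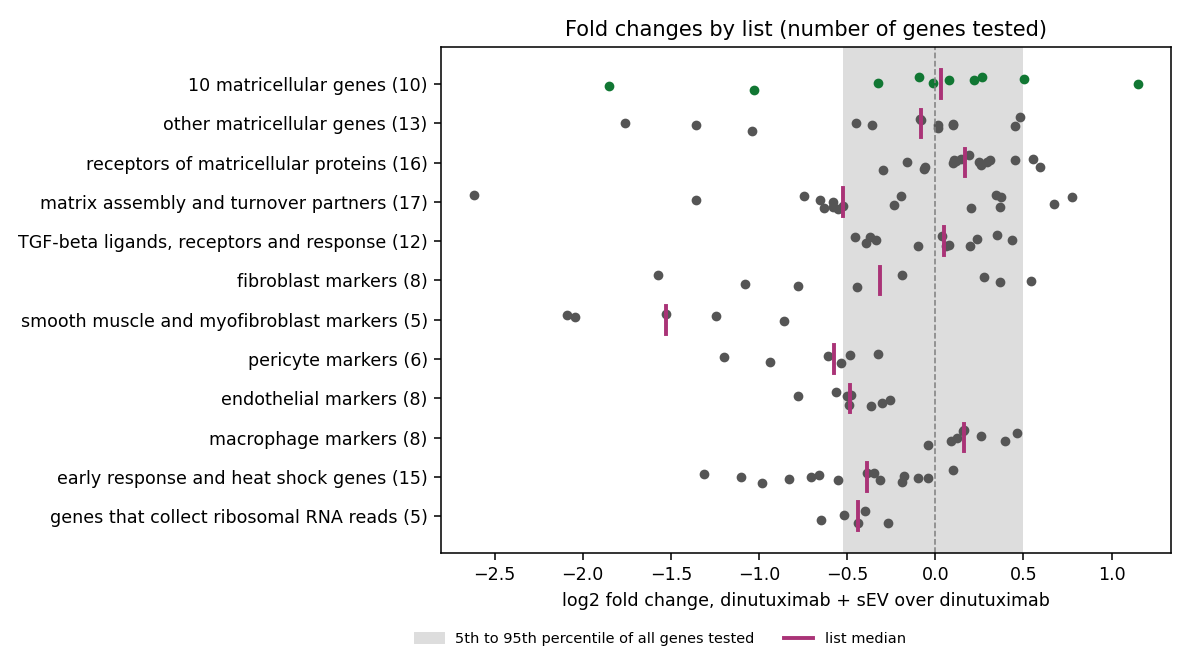
Log2 fold change, sEV over dinutuximab, of each tested gene by list, on a linear axis, with vertical bars for list medians and a grey band for the 5th to 95th percentile of all genes tested, -0.52 to 0.49. Vertical scatter within a list carries no value. The 10 genes of this account are in green and spread on both sides of 0, and all smooth muscle, pericyte and endothelial markers lie below 0.

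Several lists of stromal cell markers had lower values in the same sEV tumours, and none of their genes passed after adjustment (edgeR adjusted p of at least 0.463). Smooth muscle and myofibroblast markers had a summed level of 44.7 and 21.8 CPM in the dinutuximab tumours and 11.8 and 6.86 CPM in the sEV tumours, with all 5 tested genes negative (median -1.53) and Cnn1 at 0 counts. Acta2, the smooth muscle actin, had -2.04 ± 0.40 (SE), Tagln -2.09 ± 0.53 and Myl9 -1.53 ± 0.54. Pericyte markers summed to 75.1 and 99.4 CPM against 62.4 and 52.7 CPM, with all 6 negative, among them Pdgfrb (-0.94 ± 0.27), Notch3 (-1.20 ± 0.38) and Cspg4 (-0.61 ± 0.20). Endothelial markers summed to 138 and 158 CPM against 116 and 108 CPM, with all 8 negative and Pecam1 (-0.36 ± 0.13), Flt1 (-0.56 ± 0.23) and Cdh5 (-0.48 ± 0.21) of lowest p. With an sEV tumour left out the smooth muscle median ranged from -2.20 (without tumour 3) to -0.98 (without tumour 4), and the pericyte median of -0.57 was -1.19 and -0.39 without sEV tumours 3 and 4, and -0.92 and -0.41 without dinutuximab tumours 3 and 4. The endothelial median of -0.48 was -0.74 without dinutuximab tumour 3 and -0.19 without dinutuximab tumour 4. These 3 lists were lower in the sEV group, as were Tnc and Postn. Within each group the order of the tumours differed. The smooth muscle sum was higher in tumour 3 of both groups, where Tnc was the lower. The pericyte and endothelial sums had the order of Postn in both groups, and that of Tnc only in the dinutuximab group. These orders are of sums, and genes of a list did not all share them. Des, a smooth muscle marker, was at 2.34 and 5.48 CPM in dinutuximab tumours 3 and 4. Cspg4, the pericyte marker of highest level, was at 23.7 and 33.7 CPM in sEV tumours 3 and 4, and the endothelial Cdh5 at 14.7 and 15.6 CPM. The part of these lists in the values of Tnc and Postn was not tested. Fewer cells of a type cannot be told apart from less RNA per cell in whole tumours.

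Fibroblast markers summed to 637 and 619 CPM in the dinutuximab tumours and to 891 and 741 CPM in the sEV tumours, with 3 of 8 positive and no marker at 0. Their median log2 fold change was -0.32, and 0.06 without dinutuximab tumour 3 and -0.16 without sEV tumour 4. Most of the summed level was from Col3a1 and from Dcn, the proteoglycan decorin, which was at 267.9 and 261.3 CPM against 481.6 and 288.3 CPM (0.54 ± 0.22, SE). The collagen genes Col1a2 (-1.57 ± 0.43, SE) and Col1a1 (-0.44 ± 0.17) had negative values and Col3a1 (0.37 ± 0.14) a positive one. Macrophage markers summed to 1813 and 1920 CPM against 2088 and 2181 CPM, with 7 of 8 positive, led by Mrc1 (0.39 ± 0.17), C1qb (0.26 ± 0.12) and Mertk (0.46 ± 0.23). Early response and heat shock genes, whose levels can also shift during dissection, had a median of -0.39 with 14 of 15 negative, with Egr1 at -0.98 ± 0.17, Atf3 at -1.10 ± 0.21 and Egr2 at -0.83 ± 0.20. Their sum was 727 and 664 CPM against 571 and 570 CPM. Genes that collect ribosomal RNA reads summed to 60980 and 62570 CPM in the dinutuximab tumours and 49700 and 41780 CPM in the sEV tumours, with all 5 tested genes negative, namely Gm26917 (-0.65), mt-Rnr1 (-0.52), Gm42418 (-0.44), Lars2 and mt-Rnr2. The part of these measures in the values of the 10 genes was not tested.

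By the GENCODE M21 annotation of GRCm38 all 10 are protein-coding genes. Tnc (ENSMUSG00000028364) spans 63959785 to 64047015 on chromosome 4 (minus strand). Postn (ENSMUSG00000027750) spans 54361109 to 54391037 on chromosome 3 (plus strand). Tnxb (ENSMUSG00000033327) covers 34670535 to 34719815 (plus strand) and Thbs2 (ENSMUSG00000023885) 14665500 to 14694235 (minus strand), both of chromosome 17. Vcan (ENSMUSG00000021614) covers 89655312 to 89742509 (minus strand) and Tgfbi (ENSMUSG00000035493) 56609523 to 56639562 (plus strand), both of chromosome 13. Thbs1 (ENSMUSG00000040152) lies at 118111876 to 118127133 of chromosome 2 and Thbs3 (ENSMUSG00000028047) at 89215180 to 89226837 of chromosome 3, both on the plus strand. Sparc (ENSMUSG00000018593) lies at 55394500 to 55423183 on chromosome 11 and Fn1 (ENSMUSG00000026193) at 71585520 to 71653200 on chromosome 1, both on the minus strand. Gene counts do not separate splice forms, of which the annotation lists 17 transcripts for Fn1, 9 each for Vcan and Postn and 4 for Tnc.

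Exons of 5 of the 10 genes share bases with a gene on the opposite strand that is also in the count table. For Thbs3 the partner is Mtx1, a mitochondrial import gene, which shares 318 bases or 6.59% of the Thbs3 exon length and had between 2108 and 2747 counts against 278 to 526 for Thbs3. The Thbs3 count is therefore uncertain. The partners of Tnc (8030451A03Rik), Thbs1 (Gm29233) and Fn1 (Apol7d) had no more than 10 counts in any library, and Cyp21a2-ps, which shares 3 bases with Tnxb, had none.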

How the data were processed

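Messenger RNA was sequenced from 2 dinutuximab and 2 sEV tumours, with a stranded kit per the labels' protocols. The deposited values are the authors' raw counts for each Ensembl gene, aligned with STAR and counted with HTSeq on mm10, per the submitters' processing notes. Versions, annotation release and strand setting are not given in the sources used here. Names, positions and exon lengths came from GENCODE M21 (GRCm38), which named 42548 of 43432 IDs.

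Testing used edgeR 4.0.16 (R 4.3.3). filterByExpr kept 13823 genes, TMM scaling factors lay between 0.976 and 1.02, and the quasi-likelihood F test had the group as its only term, with Benjamini-Hochberg adjustment at 0.05. CPM values use TMM-adjusted library sizes. The SE is the log2 fold change divided by the square root of F. The exact permutation p of 2 tumours against 2 cannot go below 0.333 and was not used. The procedure was tested on simulated data.

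Alternatives were DESeq2 1.42.0, limma-voom (limma 3.58.1), other scalings and filters, robust dispersions, the tumour number as a block, other library sizes, and leaving out each library, where the lone library of a group borrows its spread from the remaining pair. The 10 genes and the lists were chosen with earlier results of these data known. Named in full were the 10 genes, and of each list up to 3 tested genes of lowest unadjusted p. Some genes of the lists are counted in them but not reported here by name. Of the listed genes that collect ribosomal RNA reads, AY036118 and Rn18s-rs5 were not matched. Other genes named for a count of 0, for an overlap or as a check were chosen after their values were seen.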

Additional observations from a re-analysis of the deposited data

How the results depend on the processing

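Of the 10 genes, 6 kept the sign of their log2 fold change in all 14 alternatives. The exceptions were Thbs3, which was 0.025 with total-count scaling and between -0.45 and 0.32 with a library left out, and Sparc (-0.087 to 0.47), Fn1 (-0.36 to 0.23) and Tgfbi (-0.10 to 0.27) with a library left out. For Tnc, Tnxb, Postn, Thbs2 and Vcan the groups did not overlap, so leaving out a library could hardly turn the sign. Thbs1 kept its sign at -0.009 without sEV tumour 3. The remaining alternatives refit the same 4 libraries, so a kept sign is not independent support. DESeq2 called 14 genes higher and 31 lower, 1 of them (Tnc) among the 10. Without the filter on low counts edgeR called 107 higher and 155 lower (0.486% and 0.704%), 3 of them (Tnc, Tnxb and Postn) among the 10. With a library left out, the calls ranged from 0 to 160 higher and from 0 to 156 lower, and from 0 to 3 of the 10. The counts other than 0 came without sEV tumour 3 (48 higher, 84 lower, with Tnc and Postn) and without sEV tumour 4 (160 higher, 156 lower, with Tnc, Tnxb and Thbs1). The prior degrees of freedom weigh the spread shared over genes against that of each gene. They were infinite in these 2 fits and in the fit without the filter, against 6.48 in the main fit. They were 5.29 and 6.15 without dinutuximab tumours 3 and 4. An infinite value leaves a gene no spread of its own in the test, so these calls are not firmer than the main fit. The part of this in the calls was not tested. With the tumour number as a replicate block, edgeR called 21 higher and 46 lower (0.152% and 0.333%), 1 of them (Tnc, adjusted p = 0.0058) among the 10. The prior degrees of freedom were 14.7 in the block fit, so the spread shared over genes weighed more there than in the main fit. In the alternatives not named with calls here, the threshold of 0.1 included, the calls stayed at 0. The labels do not say that a number pairs tumours, and deviations from the group means correlated at 0.117 across genes between same-numbered tumours. With 2 tumours a group the deviations of tumours 3 and 4 mirror each other, so both pairs give the same value. It cannot decide whether the tumours are paired. Precision is limited by 2 tumours a group, and for Tnc, Tnxb and Postn also by counts between 46 and 314 in a library.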

Other observations

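Other marker lists were read in the same libraries, and none of their genes passed the edgeR test after Benjamini-Hochberg adjustment. Platelet and megakaryocyte markers summed to 52.1 and 44.1 CPM in the dinutuximab tumours and to 80.7 and 54.8 CPM in the sEV tumours, with all 4 tested genes positive and Gp6 at 0 counts. Their median log2 fold change of 0.45 was 0.04 without sEV tumour 3 and 0.72 without sEV tumour 4. Pf4, a platelet chemokine also made by macrophages, had the lowest p among them (0.50 ± 0.19, SE), ahead of Itga2b (0.57 ± 0.46) and Ppbp (0.40 ± 0.51). Skeletal muscle markers summed to 12.0 and 12.4 CPM against 8.24 and 4.92 CPM, with all 5 tested genes negative, among them the myosin gene Myh1 (-2.64 ± 0.46), Tnnt3 (-0.75 ± 0.32) and Mylpf (-0.64 ± 0.34). Schwann cell markers summed to no more than 10.2 CPM in a tumour. Among those tested, Erbb3 had -0.51 ± 0.31 and Mbp 0.32 ± 0.58. The 4 tested neuroblastoma markers had a median log2 fold change of 0.10 (0.02 without dinutuximab tumour 3), with Gata3 at -0.64 ± 0.34, Isl1 at 0.24 ± 0.17 and Hand2 at 0.17 ± 0.13. Of the fat markers Fabp4 was tested (-0.11 ± 0.16), and Plin1 and Lep had 0 counts. Skin markers summed to at most 1.68 CPM, in sEV tumour 3, and none was tested.

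The 10 genes differed in which tumour held the extreme value. Dinutuximab tumour 4 was the highest for 4 of them, sEV tumour 3 for 5 and sEV tumour 4 for 1. The lowest value was in dinutuximab tumour 3 for 5 genes and in sEV tumour 3 for 3 genes.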
